A study of Mus musculus with 3 samples.

Results

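The interferon-inducible GTPases described here are 10 genes of the 50262 in the deposited count table, taken by name. They are the guanylate-binding protein genes Gbp2, Gbp3, Gbp5 and Gbp7 and the immunity-related GTPase (IRG) genes Iigp1, Tgtp1, Tgtp2, Igtp, Irgm1 and Irgm2. The list was drawn up with their levels in these data already known, so a high level in the medium stage is a description and not a test. The question asked was whether glia, stroma and leukocytes of the medium stage carried these transcripts alike.

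The cells came from mouse brains with gliomas driven by conditional human EGFR, with constitutive loss of Cdkn2a and a conditional luciferase reporter. Tumors were started by intracranial injection of a lentivirus that carries Cre (pTyf TGFa-IRES-iCre or pTyf-iCre), and all groups share these alleles. The mice were of both sexes, on a mixed background of Balb/cJ, SJL, FVBN/J, 129S4 and C57Bl/6J. Which alleles of these strains a given animal carried is not given in the sources used here. Viable cells were sorted by the leukocyte surface protein CD45 into CD45+ and CD45- fractions and encapsulated on inDrop, which counts mRNAs by unique molecular identifiers (UMIs) at their 3′ ends. The deposited samples are 3 sequencing runs, in which stage and sort are known from the library of a cell. The early, medium and late stages (late is deposited as large) come from 1 tumor sample each, with 4 technical libraries per sort, lettered A to D here. Early tumors were pooled from more than 1 mouse. Differences between stages therefore cannot be told apart from differences between animals, and they carry no p-value. Normal brain was not analysed here.

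Both groups of proteins belong to cell-autonomous immunity, the defense that a cell mounts within its own cytoplasm. Interferon-gamma binds its receptor, the Jak kinases pass the signal on, and transcription factors, Irf1 among them, switch on the GBP and IRG genes. GBPs assemble on the membranes of bacteria and of vacuoles that hold parasites. Effector IRGs (Iigp1, also called Irga6, and Tgtp1 and Tgtp2, called Irgb6) load onto such vacuoles and break them, while the regulatory IRGs (Irgm1, Irgm2 and Igtp, also called Irgm3) hold the effectors inactive on the cell's own membranes.

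The GBP members lie together on chromosome 3, and Tgtp1, Tgtp2, Igtp, Irgm1 and Irgm2 lie on chromosome 11. Of the 10 members, 9 had a RefSeq promoter (GRCm38.p6; 250 bases before to 50 after a start site). Iigp1 had none in the table used. The promoters were searched on both strands for TTCNNNGAA, the core of the gamma-activated site (GAS), and for GAAA followed by any 2 bases and GAAA again, the core of the interferon-stimulated response element (ISRE). At least 1 ISRE match was present for 9 of 9 members, against 3.44% of all 32851 promoters, and a GAS match for 6 of 9, against 8.30%. Both occurred in 1 promoter for 6 members, namely Gbp5, Gbp7, Igtp, Irgm2, Tgtp1 and Tgtp2, against 0.454% of all promoters. In Igtp, Irgm2, Tgtp1 and Tgtp2 the GAS match was followed by the ISRE match with 2 bases between them. This arrangement, looked for after the matches had been seen, occurred in 5 of 32851 promoters, and the other promoter was that of Gm12185. The 4 windows are printed to show this shared arrangement, and those of Gbp3 and Gbp7 for contrast, with matches in capitals and 5′ to 3′ on the gene's strand. A match is a run of letters and not a measured binding site.
Igtp, chr11:58199501-58199541, plus strand: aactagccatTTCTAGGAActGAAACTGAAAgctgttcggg
Irgm2, chr11:58214892-58214932, plus strand: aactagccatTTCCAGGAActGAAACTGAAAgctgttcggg
Tgtp1, chr11:48992304-48992344, minus strand: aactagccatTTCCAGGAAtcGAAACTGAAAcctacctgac
Tgtp2, chr11:49064263-49064303, minus strand: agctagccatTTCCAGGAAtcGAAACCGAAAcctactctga
Gbp7, chr3:142530220-142530302, plus strand: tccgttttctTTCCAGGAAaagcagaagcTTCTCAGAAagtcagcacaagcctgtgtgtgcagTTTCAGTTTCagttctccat
Gbp3, chr3:142559989-142560024, plus strand: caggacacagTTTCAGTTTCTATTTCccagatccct
All of these windows end upstream of the RefSeq start site, between 15 bases (Igtp) and 58 bases (Tgtp1) before it. Tgtp1 and Tgtp2 are near-identical copies, and their levels below are nearly equal, so reads of either cannot be assigned with certainty. The annotated bodies of Igtp and Irgm2 overlap on the same strand (GENCODE M21), so the split between these genes is also uncertain.

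The cells kept after filtering numbered 17781, with 136 to 1751 cells in each early CD45+ library but as few as 17 in a late one. Totals per stage and sort ranged from 5381839 UMIs in late CD45+ cells to 10808099 in early CD45+ cells. Levels are given as counts per 1000000 (CPM), the UMIs of a gene per 1000000 UMIs of the same cells. Intervals are exact at 95% (Poisson for levels, Clopper-Pearson for shares) and cover counting error only, not the spread between animals. Those of levels, ratios and shares of UMIs treat each UMI as independent, so they also leave out the spread between cells. In each run some cell barcodes were found in more than 1 library (133, 299 and 308 barcodes).

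In the CD45- sort the summed members stood at 165 CPM in the early stage, 1107 in the medium stage and 96.0 in the late stage. The 4 libraries spanned 140.1 to 182, 928 to 1189 and 75.4 to 113, so no medium library came near the others. In the CD45+ sort the sums were 421, 794 and 154, with libraries at 406 to 500.2, 743 to 913 and 48.1 to 163. Medium was thus 6.73-fold above early in CD45- cells and 1.89-fold in CD45+ cells, and 11.5-fold and 5.15-fold above late. In cells with no UMI of human EGFR, a choice made after seeing the data, the folds over early were 2.44 in CD45- and 1.49 in CD45+ cells, and those over late 4.42 and 3.99. In sums over a sort, fewer cells of a type and less RNA per cell cannot be told apart.

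The members did not move evenly. Iigp1, an effector IRG, read 11.3, 12.1, 17.5 and 23.5 CPM in the early CD45- libraries, 128, 240.1, 247 and 292 in the medium ones and 2.38, 4.52, 5.84 and 8.80 in the late ones. Igtp, a regulatory IRG, read 13.8, 20.9, 28.1 and 30.4, then 204, 225, 232 and 271, then 5.25, 6.64, 8.34 and 8.56. Both genes separated the medium libraries of this sort from the others by a wide gap, 14.1-fold (Iigp1) and 10.2-fold (Igtp) over early. Gbp5, which in macrophages promotes inflammasome assembly, read 6.74, 7.27, 8.74 and 9.89 in early, 13.1, 15.4, 20.9 and 26.7 in medium and 2.66, 3.89, 4.29 and 5.09 in late CD45- libraries. Its 2.30-fold difference over early was the smallest of the 10 in this sort, next to Gbp2 at 2.39-fold. The other 6 lay between 4.86-fold (Tgtp1) and 8.0-fold (Gbp3).

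Across the CD45+ sort the division ran between the subfamilies, but without a clear gap. These sums hold every kept cell of the sort and not the leukocyte classes alone. Of 185 medium Irgm2 UMIs, microglia-like cells held 27 and an unnamed cluster led by Cxcl9 and Ifi44l, described below, 22. Macrophage- or monocyte-like and T cell-like cells held 19 each. Of 550 Gbp5 UMIs the same groups held 114, 175, 103 and 39. The part of cells outside the leukocyte classes in the folds was not tested. For the 6 IRG genes every medium library was above every early library, with folds from 1.44 (Irgm2) to 4.31 (Iigp1). For the 4 GBP genes medium and early libraries overlapped, with folds from 1.10 (Gbp7) to 1.40 (Gbp3). Irgm2 and Gbp3 thus had nearly equal folds. The lowest medium library of Irgm2 read 16.6 CPM, against 16.0 in the highest early one. Gbp3 overlapped through early library A (45.7 CPM from 17 UMIs), against 41.6 in its lowest medium library. Gbp5 read 46.6, 47.1, 58.1 and 59.2 in early and 54.0, 54.6, 55.8 and 59.0 in medium CD45+ libraries, which are indistinguishable. Against the late stage all 10 members were higher in every medium library of both sorts. The share of all genes whose libraries separate in this way was not computed, so these counts have no background beside them.

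**Figure D1:**
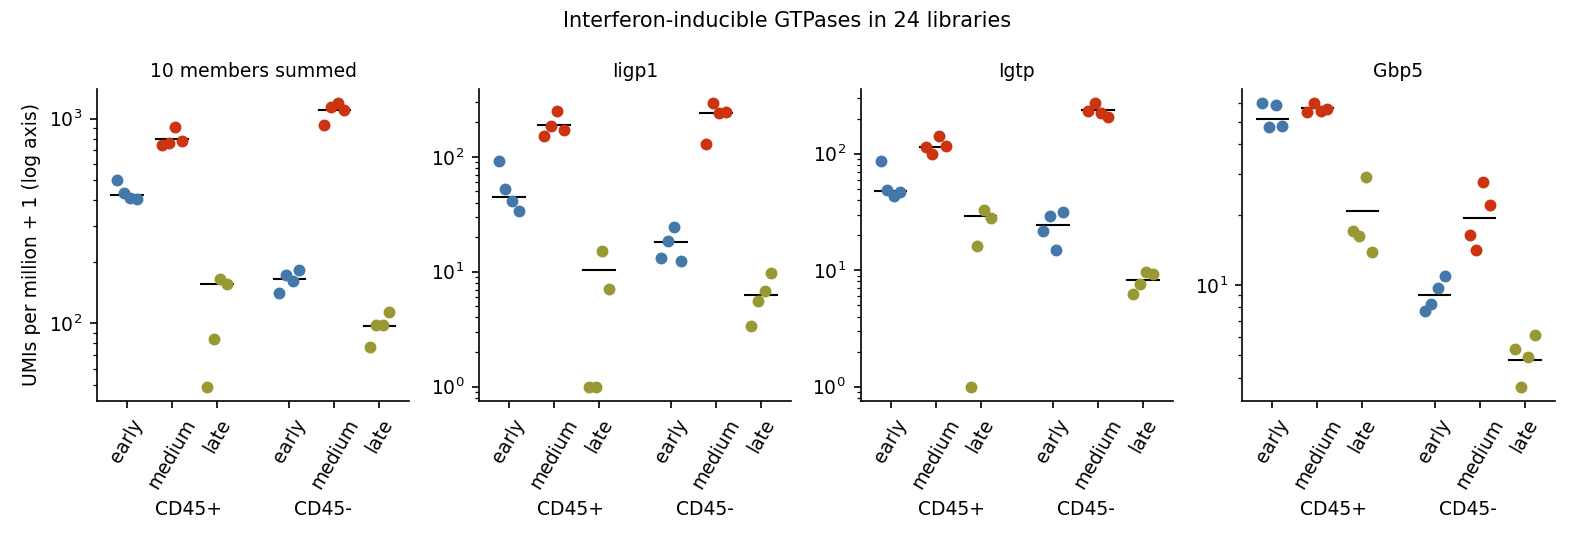
CPM plus 1 on a log axis for the 10 members summed, Iigp1, Igtp and Gbp5, with 1 point per library and a bar at the value of the pooled cells. Medium libraries stand above all others in the CD45- sort, while for Gbp5 the early and medium CD45+ libraries overlap; points at 1 are libraries with 0 UMIs.

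The members were tested between the sorts, with UMIs summed per tumor sample and sort and the 3 tumors as a block. Each sum holds every kept cell of a sort, so the test compares sorts and not leukocytes with other cells. The result is read beside the share of all genes called. The 3 GBP genes Gbp5, Gbp2 and Gbp7 were higher in CD45+ cells, and no member was lower. Of all genes tested, 20.4% of 18433 were called higher and 25.7% lower (edgeR quasi-likelihood test, two-sided, Benjamini-Hochberg adjusted p below 0.05), so 3 of 10 members is close to the background. Gbp5 had the largest difference of the 10, a log2 fold change of 2.56 ± 0.25 (SE, adjusted p = 0.000281). Gbp7 followed at 1.46 ± 0.40 (adjusted p = 0.0229) and Gbp2 at 1.30 ± 0.30 (adjusted p = 0.00995), all higher in 3 of 3 pairs. These calls were made with tumor as a block, since both sorts came from the same dissociated tumors. With no block, Gbp5 alone passed (adjusted p = 0.0202), and Gbp2 and Gbp7 had adjusted p = 0.282 and 0.185.

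No IRG gene passed this test. Iigp1 missed the threshold at 0.95 ± 0.33 (adjusted p = 0.0508, higher in 2 of 3 pairs) and passed under 5 alternatives, among them DESeq2 (adjusted p = 0.0209). Tgtp1 stood at -0.50 ± 0.23 and Tgtp2 at -0.47 ± 0.24 (adjusted p = 0.120 and 0.144), with CD45- the higher sort in 3 of 3 pairs for each. Igtp, at 0.97 ± 0.54 (adjusted p = 0.188), turned to -0.10 without the block and passed once the medium tumor was left out (1.79, adjusted p = 0.00472). The medium tumor is the one in which its CD45- level of 238 was above its CD45+ level of 114.

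Cells were grouped by clusters and fixed RNA markers into classes that are called "-like". Leukocyte classes were taken from the CD45+ sort and all others from the CD45- sort. A gene entered a comparison of stages with at least 10 UMIs over both, and a class with at least 50 cells in both.

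Over early, the largest ratio among the named classes was in the glioma- or oligodendrocyte progenitor-like class (Pdgfra, Olig1 and Olig2 among its markers). Its summed members read 53.7 CPM (95% interval 34.4 to 79.8, 169 cells) in the early stage, 1869 (1804 to 1936, 304 cells) in the medium stage and 78.8 (68.9 to 89.7, 608 cells) in the late stage. The medium libraries spanned 1614 to 2041, against 7.33 to 92.3 in the early and 52.4 to 118 in the late ones. The medium libraries thus did not overlap those of the other stages. Medium exceeded early 34.1-fold and late 23.7-fold. Within runs the fold over early was 21 in run 2 and 47.0 in run 3, and over late 26.6, 29.7 and 13.6 in runs 1, 2 and 3. Without early CD45- library B the fold over early was 56.0.

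Regulatory IRGs led in these cells. Igtp read 2.24 (1 UMI), 508 and 2.75 CPM in early, medium and late cells. Irgm1, which is needed for normal autophagy and restrains the effector IRGs, read 26.8, 381 and 54.7 CPM, and Irgm2 read 6.71, 92.2 and 4.47. Igtp was thus close to absent outside the medium stage, while Irgm1 had a measurable level in all stages. The effector IRGs were at or near 0 outside the medium stage. Iigp1 was found 0, 510 and 2 times, Tgtp1 0, 291 and 0 times and Tgtp2 0, 296 and 0 times in early, medium and late cells. Against a floor of 3 UMIs over the group, medium Iigp1 was at least 46.1-fold higher than early, Tgtp1 at least 26.3-fold and Tgtp2 at least 26.8-fold.

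GBPs were a minor share of the same cells. Gbp7 read 4.47, 117 and 9.98 CPM and Gbp3 0, 63.7 and 3.44. Gbp2 read 13.4 (6 UMIs), 27.9 and 0. Its fold over early was 1.94 with the prior of 0.5 counts that every such ratio carries, and just over 2 from the levels alone, so its place beside the 2-fold limit rests on that prior. The interval of its log2 ratio ran from -0.17 to 2.58. With the prior, 9 of 10 members were at least 2-fold higher in medium than in early cells, where 12.9% of all genes entered were, and 10 of 10 against late cells, where 6.62% were. Their median log2 ratio over early was 5.12, or 4.08 with the members at 0 held at the floor, beside -0.15 over all genes.

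The cells compared in this class were not the same clusters at each stage. In the early sample 111 of 169 cells were in a cluster led by Susd5 and C1ql2, and no cell had a UMI of human EGFR. In the medium and late samples most were in a cluster led by Gpr17 and Vxn, with human EGFR in 83.3% and 81.2% of its cells. Within the Susd5 and C1ql2 cluster, which had no human EGFR in either stage, the summed members read 72.6 in early and 233 in medium cells. Within the Gpr17 and Vxn cluster they read 7.66 (1 UMI), 2183 and 81.5. The medium level was above early in both clusters and above late in the Gpr17 and Vxn cluster, the only one with enough late cells for a value.

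Human EGFR divided the medium cells further. The 190 medium cells of this class with at least 1 UMI of human EGFR had 2267 CPM (2186 to 2351) of the summed members, and the 114 without had 382 (320 to 453). In the late sample the 457 cells with human EGFR had 82.7 and the 151 without had 48.6. Restricted to cells without human EGFR, a choice made after seeing the data, the log2 ratio of medium over early was 2.81 in place of 5.09. A cell with a human EGFR UMI had on average more UMIs (a total of 1299746 in the 190 cells and 348056 in the 114), and the part of depth in this split was not tested.

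A medium-only cluster of 120 CD45- cells led by Apobec3 and Gfra3, left unnamed, had human EGFR in 85.8% of cells and 2579 CPM of the summed members. Its 4 libraries spanned 1789 to 3296. The late sample held a cluster of 530 cells led by Fbln2 and Thbs2 with human EGFR in 89.2% of cells, and these had 111. High levels were thus measured in more than 1 cluster with human EGFR of the medium sample, and cells with human EGFR of the late sample were low.

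Oligodendrocyte-like cells (Mog, Mag and Mobp among their markers) were the other glial class with a large difference. Their summed members read 42.7 CPM (36.3 to 50, 1372 cells) in early, 347 (323 to 372, 660 cells) in medium and 2.50 (0.811 to 5.83, 695 cells) in late samples. The libraries spanned 28.9 to 55.6, 215 to 490.3 and 0 to 4.73, without overlap. The fold over early was 8.10, and 5.74, 5.99 and 13.4 within runs 1, 2 and 3. In 695 late cells the 10 members together had 5 UMIs.

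Igtp and Iigp1 led. Igtp read 23.3, 105 and 0 CPM in early, medium and late cells, and Iigp1 read 0.274, 73.2 and 0. Irgm1 read 5.20, 33.2 and 2.00. Igtp was therefore already measurable in the early oligodendrocyte-like cells, where Iigp1 rested on 1 UMI. Gbp7, at 0.822, 43.2 and 0, was the highest of the GBP genes in the medium cells and above Irgm1, and Gbp5, with 5, 3 and 1 UMIs, did not enter. The 9 members that entered were all at least 2-fold higher in medium than in early cells, and again than in late cells, beside 6.95% and 5.39% of all genes.

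Few oligodendrocyte-like cells carried these transcripts. Of 660 medium cells 20 (3.03%, 1.86 to 4.64%) had at least 10 member UMIs, a limit chosen after seeing the data, and they held 89.1% of the member UMIs of the class. These cells were found in 4 of 4 libraries. With each cell thinned to 1000 UMIs, 2.62% of cells had at least 5 member UMIs. In the early sample 5 of 1372 cells passed 10 UMIs, and in the late sample 0 of 695, with an upper limit of the exact interval of 0.529%. The glioma- or progenitor-like class was broader, with 80 of 304 medium cells (26.3%, 21.5 to 31.6%) past 10 member UMIs, holding 88.1% of the UMIs, and 11.5% past 5 UMIs after thinning. The highest 1% of cells held 53.2% of member UMIs in oligodendrocyte-like cells and 13.5% in glioma- or progenitor-like cells.

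**Figure D2:**
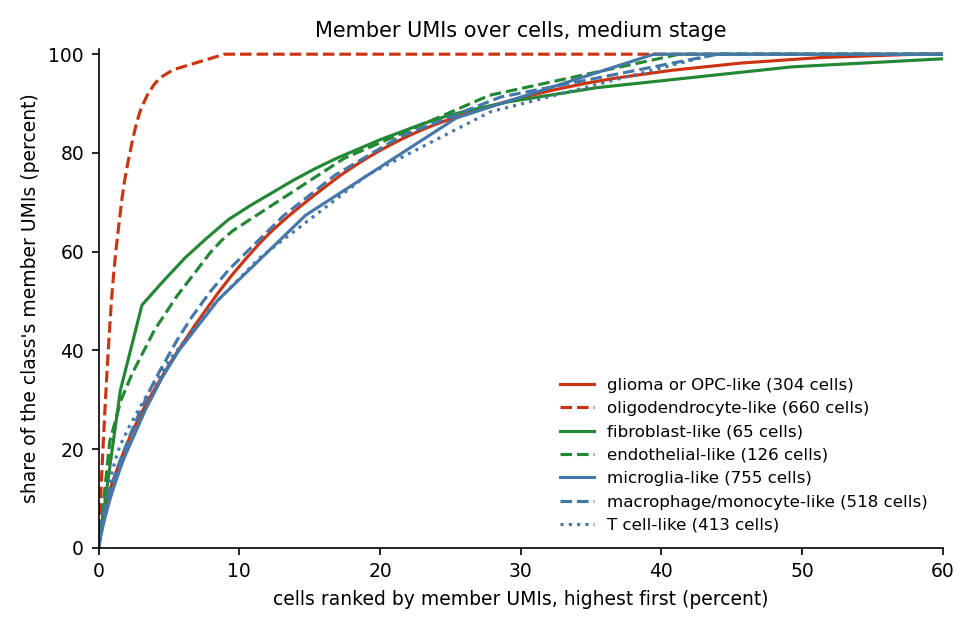
Cumulative share (percent) of the member UMIs of each medium-stage class against the percent of its cells, ranked from the highest. The oligodendrocyte-like curve reaches 96.3% of UMIs at 5% of cells, while the other 6 classes reach between 36.8% and 55.3%.

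Other interferon genes were measured in the same few cells. The 20 oligodendrocyte-like cells had 11071 CPM of the listed interferon-gamma targets, against 439 in the other 640. The class I light chain gene B2m read 5845 against 332 and the immunoproteasome gene Psmb8 649 against 15.7. The summed interferon-gamma targets, which had no part in choosing the 20 cells, were thus higher in them. Type I interferon targets read 2072 against 137 and interferon transcription factors 1928 against 196. Interferon inhibitors read 165 against 35.2 and other genes of the GBP and IRG families 1752 against 25.2. The difference did not extend to all interferon lists. Receptors and kinases read 268.0 CPM (175.1 to 392.7) in the 20 cells and 241.2 (220.6 to 263.1) in the others, with overlapping intervals. No UMI of a ligand gene was found in either set. Oligodendrocyte markers read 23245 and 23119, macrophage or monocyte markers 20.6 and 61.8, and microglia markers 505 and 282. Human EGFR was found in 25% of the 20 cells and in 0.938% of the others. Without human EGFR cells the medium over early log2 ratio of this class was 2.49, against 3.02 with them.

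In stroma the ratio over early was lower than in these glia, by an amount that depended on how classes were set. In endothelial-like cells the summed members read 685 CPM (153 cells), 953 (126 cells) and 660 (67 cells) in early, medium and late samples. The log2 ratio over early was 0.48 (0.17 to 0.78), and 0.68 in run 2, the only run with enough cells. Fibroblast-like cells read 951, 1430.5 and 750.5 in 99, 65 and 57 cells, a log2 ratio over early of 0.59 (0.37 to 0.80). Single cells weighed heavily in both classes. The highest medium cell held 136 of the 427 member UMIs in fibroblast-like and 44 of 204 in endothelial-like cells. The highest early cells held 48 of 311 and 9 of 160. The ratios without these cells were not computed. Within the endothelial-like cluster led by Cldn5 and Slco1a4 the summed members read 617 (517 to 730, 142 cells) in early cells. There they read 795 (676 to 931, 116 cells) in medium and 719 (570 to 895, 63 cells) in late cells, with overlapping intervals. With each cell put in the class of its highest marker score, fibroblast-like cells gave 1.72 (1.47 to 1.99) over early and 3.17 over late, and endothelial-like cells 0.84 over early. No run held enough fibroblast-like cells for a value of its own. Both classes had high levels at every stage.

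Members differed within the stroma. In endothelial-like cells Iigp1 read 154, 294 and 117 and Gbp3 77.1, 178 and 69.9, while Gbp7 read 179.8, 187 and 186. In fibroblast-like cells Iigp1 read 171, 385 and 124, Igtp 104, 258 and 124 and Gbp7 52.0, 131 and 68.2, while Irgm1 read 135, 77.1 and 64.0. Iigp1 was thus highest in the medium stage in both classes, whereas endothelial Gbp7 was nearly level over the stages and fibroblast Tgtp1 (138, 117 and 119) was highest in early cells. Of 10 members 8 entered in endothelial-like cells and 1 was at least 2-fold higher than in early cells (13.7% of all genes), and 9 entered in fibroblast-like cells, with 4 higher (16.1%). Against late cells the counts were 3 (13.5%) and 4 (11.3%). With classes set by the highest marker score, 3 were higher than in early cells in endothelial-like cells, and in fibroblast-like cells 7 over early and 10 over late. No share of all genes was computed for classes set this way, so these counts cannot be set against a background. In fibroblast-like cells 10 of 65 medium cells held 76.8% of the member UMIs, with 8 of 99 early cells holding 53.7%.

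Microglia-like cells read 336, 587 and 181 CPM (3864, 755 and 937 cells), 1.75-fold higher in medium than early and 3.24-fold higher than late. A cluster led by Ccr6 and Tmem119 held 554 of 937 late but 81 of 755 medium cells. Within it the summed members read 296, 541 and 190. An unnamed cluster led by Cxcl9 and Ifi44l, with microglia markers at 6395 CPM in its 1043 medium cells, lay outside this class. The fold over early of microglia-like cells was 1.89, 1.74 and 1.39 within runs 1, 2 and 3. The effector IRGs and Igtp and Irgm1 were the members past 2-fold over early. Iigp1 read 12.8, 46.4 and 2.16, Tgtp1 6.54, 14.3 and 0.541 and Igtp 37.7, 85.7 and 30.3, while Gbp7, their most abundant member, read 102, 151 and 80.6. This made 5 of 10 over early (5.63% of all genes) and 9 of 10 over late (4.19%). The count over early was 3 without medium CD45+ library A, 3 with cells thinned to 1000 UMIs, and 3, 4 and 2 within runs 1, 2 and 3. For these settings the share of all genes was not computed.

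Macrophage- or monocyte-like cells read 543, 714 and 105 (182, 518 and 630 cells). Their difference lay mainly against the late sample, 6.79-fold, and within runs 12.2, 4.99 and 9.90. Without late CD45+ library C it was 12.3-fold. Different clusters held most of the class, with 402 of 518 medium cells in a cluster led by Ly6i and Xcr1 and 554 of 630 late cells in one led by Rnase2a and Arg1. Within the former the summed members read 679.8 in early, 869 in medium and 171 in late cells, and within the latter 231, 297 and 97.5. Medium was thus above late in each cluster, by less than in the class as a whole. Gbp2, which accumulates on vacuoles of the parasite Toxoplasma, read 194, 111 and 7.10 here and was highest in the early sample. Members past 2-fold were 3 of 10 over early (11.5%) and 10 of 10 over late (10%). The cluster led by Ly6i and Xcr1 mixes dendritic with macrophage markers.

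Border macrophage-like cells (Mrc1, Cd163 and Pf4 among their markers) had the highest level of the named leukocytes in the early and medium stages. They read 1560 in early (249 cells), 1133 in medium (139 cells) and 310 in late samples (76 cells). In the late stage their interval (233 to 403) overlapped that of T cell-like cells (268 to 409), which read 333. Medium was thus below early, with a log2 ratio of -0.46 (-0.65 to -0.28), and -0.58 in run 2. Iigp1 made up the largest part, at 545, 460 and 56.4. No member was 2-fold higher in medium than early (10.2% of all genes) and 3 were 2-fold lower (12%), namely Gbp2, Gbp3 and Irgm2.

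T cell-like cells read 551, 617 and 333 (318, 413 and 117 cells), and the interval of the log2 ratio over early, -0.03 to 0.36, included 0. Iigp1 alone was past 2-fold over early (31.0 and 108, 10.4% of all genes), and 5 of 10 were over late (12.5%). Neutrophil-like cells read 271 in 51 early and 184 in 253 medium cells, with 7 members entered and Gbp5 alone 2-fold lower (21.3% lower overall). Astrocyte-like cells, with 27 early and 38 medium member UMIs, gave 152 and 232 and an interval that included 0.

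The late sample was below the early one in the leukocyte classes compared and in oligodendrocyte-like cells. Glioma- or progenitor-like cells read 53.7 in early and 78.8 in late cells, with an interval of the log2 ratio (-0.06 to 1.23) that included 0, and late cells with no UMI of human EGFR read 48.6, while no early cell of this class had such a UMI. Against early cells, 6 of 10 members were at least 2-fold lower in microglia-like cells (4.82% of all genes), 9 in macrophage- or monocyte-like cells (10.8%), 10 in border macrophage-like cells (12%) and 5 in T cell-like cells (11%). In the stroma the log2 ratio of the summed members, late over early, was -0.34 (-0.62 to -0.07) in fibroblast-like and -0.05 (-0.45 to 0.34) in endothelial-like cells.

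**Figure D3:**
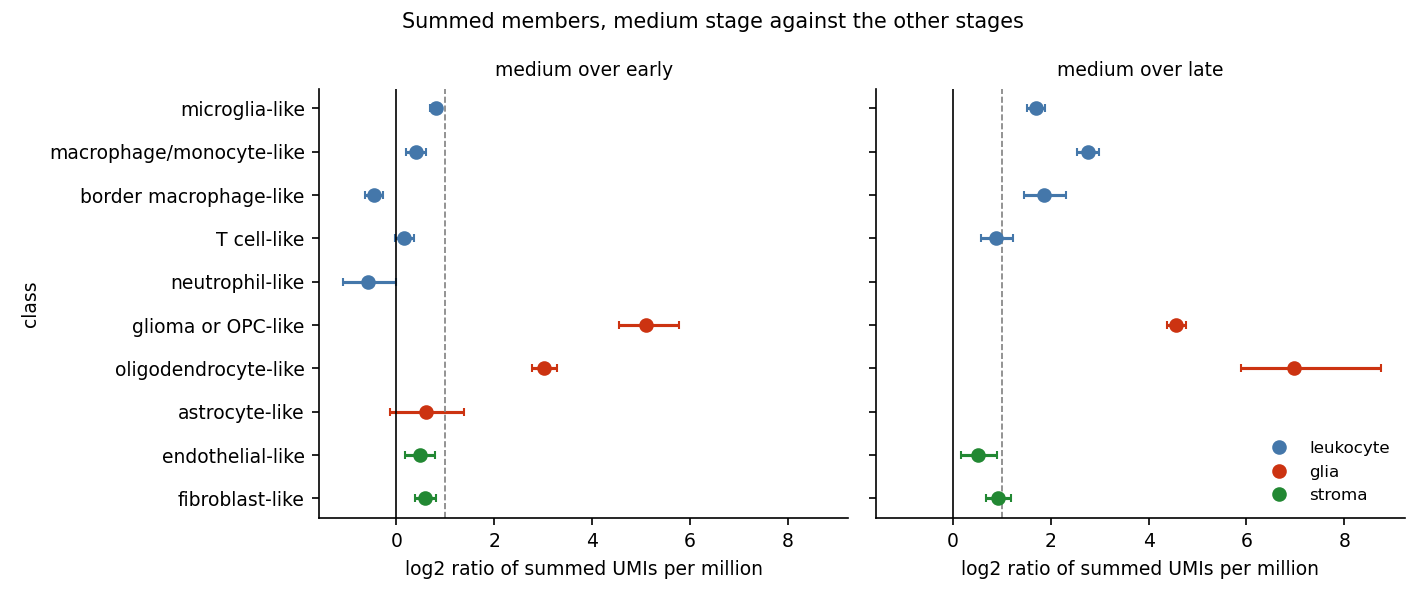
Log2 ratio of the summed members, medium over early (left) and medium over late (right), by class, with 95% counting intervals; the dashed line marks 2-fold. Glioma- or progenitor-like and oligodendrocyte-like cells stand at 5.09 and 3.02 over early, all other classes between -0.57 and 0.80. Human EGFR was found in 62.5% of medium and 0% of early glioma- or progenitor-like cells.

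Classes thus did not carry the members alike. Over early, the intervals of the 2 large glial ratios (4.55 to 5.77 and 2.77 to 3.28) did not overlap that of any leukocyte or stromal class, the highest of which ended at 0.92 in microglia-like cells. With classes set by the highest marker score the gap was smaller, with oligodendrocyte-like cells at 2.62 (2.40 to 2.84) and fibroblast-like cells at 1.72 (1.47 to 1.99). These intervals leave out the spread between animals and between cells, so whether they overlap is a description. The difference between classes was not tested. The glial ratios start from a low early level. The glioma- or progenitor-like ratio also compares different cells, with human EGFR in 62.5% of medium and 0% of early cells. Medium cells of this class without human EGFR read 382 CPM, against 53.7 in early cells. Its Susd5 and C1ql2 cluster read 72.6 in early and 233 in medium cells. Oligodendrocyte-like cells without human EGFR read 42.7 in early and 240 in medium samples. In the medium stage itself the order of levels among the named classes compared was glioma- or progenitor-like (1869), fibroblast-like (1430.5), border macrophage-like (1133), endothelial-like (953), macrophage- or monocyte-like (714), T cell-like (617) and microglia-like (587), followed by oligodendrocyte-like (347), B cell-like (302), astrocyte-like (232) and neutrophil-like cells (184). Oligodendrocyte-like and B cell-like cells had overlapping intervals (323 to 372 and 262 to 346), as had B cell-like and astrocyte-like cells (164 to 318) and astrocyte-like and neutrophil-like cells (156 to 216). Border macrophage-like and endothelial-like cells overlapped as well (1018 to 1258 and 827 to 1093). T cell-like and microglia-like cells differed by less than the range of their libraries. Libraries of macrophage- or monocyte-like and T cell-like cells also overlapped (531 to 892 and 529 to 667).

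The share of cells with at least 1 member UMI followed another order. It was 66.2% in fibroblast-like, 58.2% in glioma- or progenitor-like, 41.3% in endothelial-like, 39.5% in microglia-like and 8.94% in oligodendrocyte-like medium cells. After thinning to 1000 UMIs these were 44.6%, 41.9%, 35.1%, 30.1% and 5.85%. In late glioma- or progenitor-like cells the thinned share was 6.97%, and in early ones 3.11%. Median depths of the medium cells were 4376.5 UMIs in glioma- or progenitor-like, 2932.5 in oligodendrocyte-like and 1735 in microglia-like cells.

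**Figure D4:**
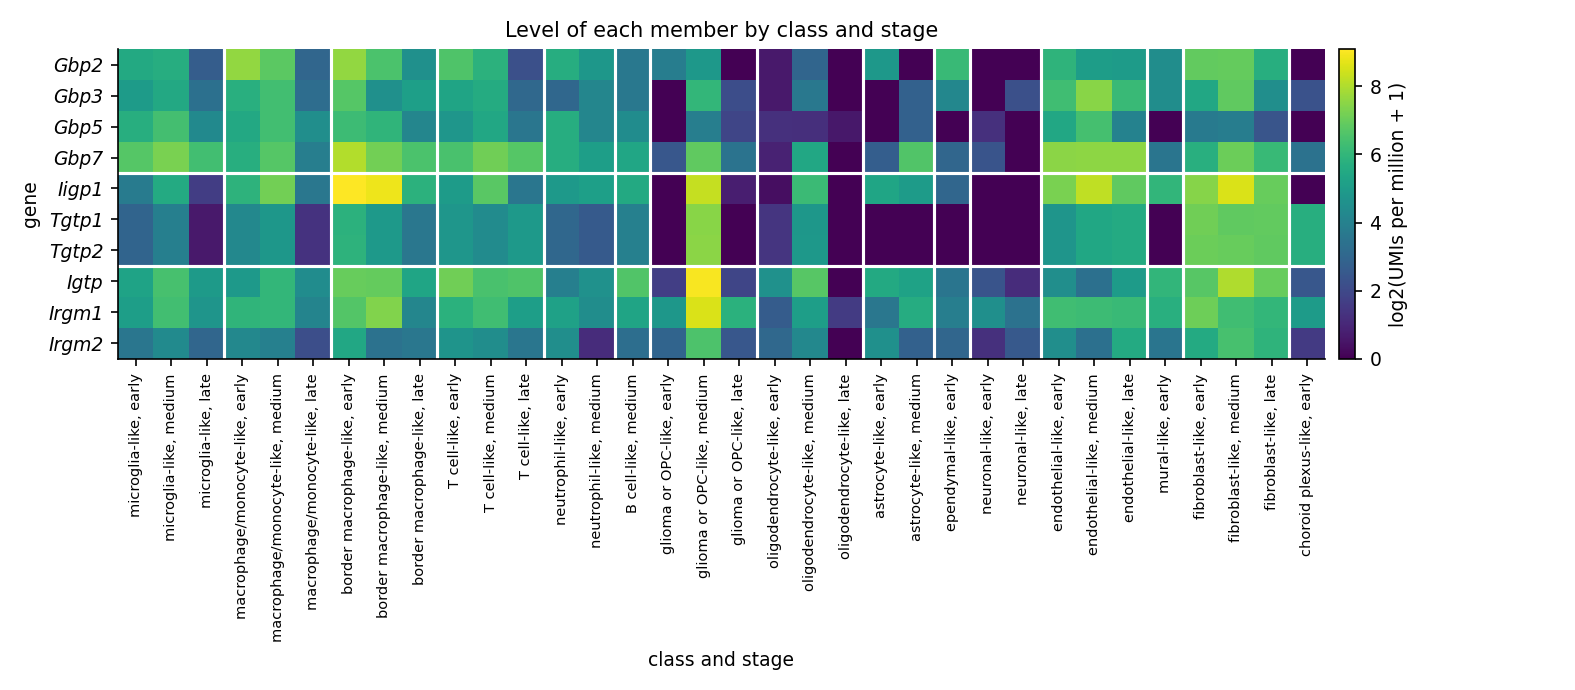
Level of each member as log2(CPM + 1) (color) by class and stage, for classes of at least 50 cells; white lines separate GBPs, effector IRGs, regulatory IRGs and classes. The medium glioma- or OPC-like column is bright for all IRG genes and dark on either side for Iigp1, Tgtp1, Tgtp2 and Igtp.

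The make-up of the family differed between classes. GBPs were 55.7% (52.2 to 59.1%) of member UMIs in medium microglia-like cells, 52.4% in macrophage- or monocyte-like, 51.3% (43.0 to 59.6%, 150 UMIs) in neutrophil-like and 50.5% (43.4 to 57.5%) in endothelial-like cells, but 11.9% (10.8 to 13.1%) in glioma- or progenitor-like and 18.1% in oligodendrocyte-like cells. This did not divide leukocytes from glia, since GBPs were 28% in border macrophage-like and 27.8% in B cell-like cells and 47.4% (31.0 to 64.2%, 38 UMIs) in astrocyte-like cells. Regulatory IRGs were 52.5% in glioma- or progenitor-like and 45.0% in oligodendrocyte-like cells, 47.8% in B cell-like cells and 9.80% in endothelial-like cells. Effector IRGs were highest in border macrophage-like cells (45.7%) and fibroblast-like cells (43.8%) and 12.8% in microglia-like cells.

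The leading member differed between classes. Igtp made up 27.2% of member UMIs in glioma- or progenitor-like and 30.3% in oligodendrocyte-like cells, against 0.980% (2 UMIs) in endothelial-like cells. Gbp7 made up 25.7% in microglia-like cells and Iigp1 40.6% in border macrophage-like cells.

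**Figure D5:**
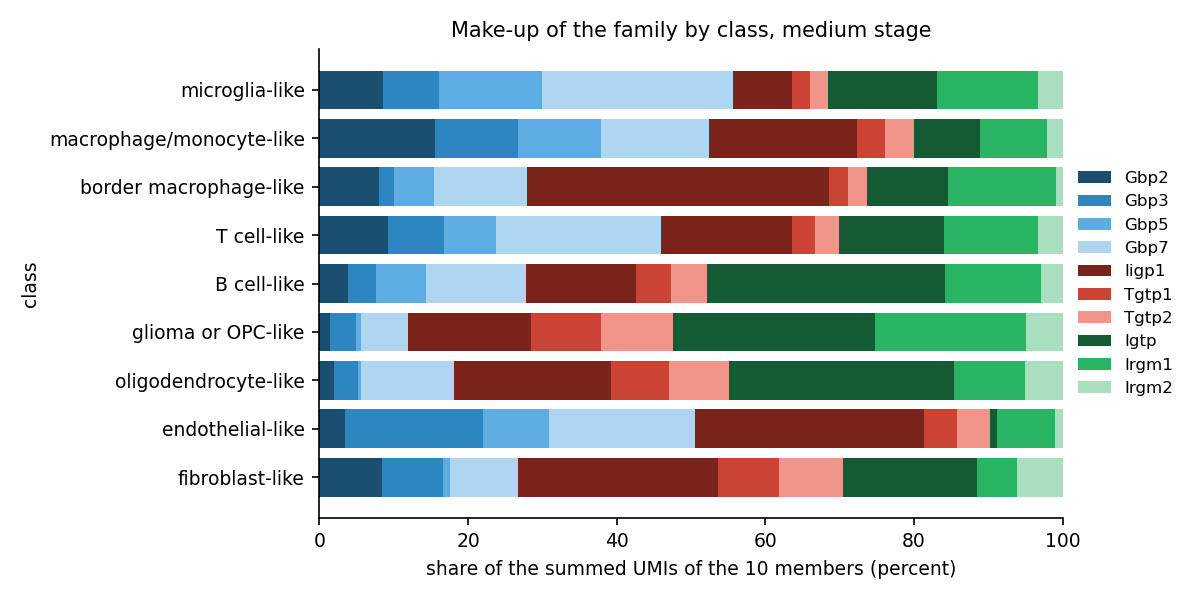
Share (percent) of each member in the summed UMIs of the 10 members by medium-stage class, without the neutrophil-like (150 member UMIs) and astrocyte-like (38) classes, which had the fewest; blue, GBPs; red, effector IRGs; green, regulatory IRGs. GBPs make up over 50% of the bars of microglia-like, macrophage/monocyte-like and endothelial-like cells and 11.9% in glioma- or OPC-like cells.

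The ligand was measured in leukocytes. Ifng read 278, 407 and 121 CPM in T cell-like cells of the early, medium and late samples. In glioma- or progenitor-like, oligodendrocyte-like, endothelial-like and fibroblast-like cells no Ifng UMI was found at any stage. Ifnb1 had 14, 6 and 0 UMIs in microglia-like cells and none in glioma- or progenitor-like cells, and Ifna2 had 1 UMI in kept cells overall. Between the sorts Ifng was higher in CD45+ cells (log2 fold change 10.62 ± 0.62, adjusted p = 0.000208, edgeR), a value that rests on counts at or near 0 in CD45- cells.

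Receptors differed less than their targets. Ifngr1, which binds the ligand, read 71.6, 56.4 and 65.4 CPM in glioma- or progenitor-like cells and 607, 525 and 586 in microglia-like cells. The kinase gene Jak1 read 109.6, 81.3 and 84.3 and the type I receptor gene Ifnar2 51.4, 63.1 and 62.6 in glioma- or progenitor-like cells. Of 7 receptor and kinase genes, 2 were at least 2-fold higher in medium than early cells of this class (12.9% of all genes) and 0 in microglia-like cells (5.63%).

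Among the interferon transcription factors, the counts past 2-fold differed between classes. In glioma- or progenitor-like cells Irf1 read 51.4, 151 and 42.0 CPM in early, medium and late samples. Stat3 read 168, 239 and 233, and Irf8 11.2, 63.1 and 22.4. Of 11 factors 10 were at least 2-fold higher in medium than early cells of this class (12.9% of all genes), 6 of 11 in microglia-like (5.63%), 3 of the 7 entered in oligodendrocyte-like (6.95%), 3 of 7 in endothelial-like (13.7%) and 1 of 6 in fibroblast-like cells (16.1%), the last being close to the share of all genes. In microglia-like cells Irf1 read 208, 320.0 and 137. Of the inhibitors, Socs3 read 684, 979.5 and 1314 in glioma- or progenitor-like cells, Pias1 69.3, 29.1 and 58.8 and Ptpn2 26.8, 26.7 and 27.5, and 2 of the 5 inhibitors were at least 2-fold higher in medium than early cells and 1 was lower.

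Interferon-gamma targets, mostly genes of antigen presentation, were at least 2-fold higher in medium than early for 12 of 13 entered in glioma- or progenitor-like, 11 of 14 in oligodendrocyte-like, 9 of 17 in microglia-like, 4 of 10 in endothelial-like and 3 of 13 in fibroblast-like cells, beside the same shares of all genes. In fibroblast-like cells 2 were lower. The class II genes Cd74, H2-Aa and H2-Eb1 read 2.24, 76.5 and 0, 0, 114 and 1.38, and 0, 228 and 0.344 in glioma- or progenitor-like cells. In microglia-like cells the same genes read 1388, 8406 and 418, 663, 5853 and 215, and 543, 4640 and 153. The level in the medium stage was highest in both classes and far higher in the microglia-like one. Of type I interferon targets 10 of 17 were at least 2-fold higher in medium than early glioma- or progenitor-like cells (12.9% of all genes). In microglia-like cells 11 of 23 were (5.63%). Among the most abundant of these, Isg15 read 11.2, 103 and 8.95 in glioma- or progenitor-like cells, Xaf1 6.71, 29.7 and 14.8, and Ifi27l2a 0, 3.64 and 0.688.

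Other genes of the GBP and IRG families behaved alike in part. Of 16, 11 entered in glioma- or progenitor-like cells and 9 were at least 2-fold higher in medium than early (12.9% of all genes). In microglia-like cells 7 of 11 were (5.63%). Ifi47 (Irgd) read 0, 121 and 0.344 in glioma- or progenitor-like cells and 1.01, 1.43 and 1.08 in microglia-like cells. Gbp4 read 15.7, 65.5 and 12.7, and 9930111J21Rik2 26.8, 42.5 and 13.1 in the former class. Ifi47 was therefore near 0 in microglia-like cells of all stages, with 2 UMIs in the medium ones.

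Between the sorts these lists were mostly higher in CD45+ cells, where 20.4% of all genes were. The counts were 6 of 7 receptors and kinases, 10 of 11 transcription factors, 4 of 5 inhibitors, 16 of 17 interferon-gamma targets and 15 of 25 type I targets, with 1 of these lower. Other family genes gave 3 of 12, like the members. Their median log2 fold changes were 1.52, 1.54, 0.91, 2.78, 1.51 and 0.95, against 1.38 for the GBP members, -0.47 for the effector IRGs, 0.33 for the regulatory IRGs and -0.04 over all genes.

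Markers of leukocytes were also counted in the other classes. T cell markers read 22.4, 7.28 and 4.47 CPM in early, medium and late glioma- or progenitor-like cells, with 5 of 9 found in the medium cells and Cd3e, Cd3g, Trac and Cd8a at 0. Microglia markers read 470, 360 and 236 there, with 7 of 9 found in medium cells and Tmem119 and Gpr34 at 0, against 20808 in medium microglia-like cells. Macrophage or monocyte markers, a list that holds Vcan, also a marker of this class, read 874, 752 and 563, against 3765 in medium macrophage- or monocyte-like cells, with 8 of 14 found in medium cells. None of these lists was highest in the medium stage of this class. In astrocyte-like cells microglia markers read 1005 in early and 1641 in medium cells. In oligodendrocyte-like cells T cell markers read 2.74, 5.00 and 3.50 and microglia markers 260.2, 292 and 211 in early, medium and late cells, with P2ry12 at 0 in the medium cells. Both lists were highest there in the medium stage, while macrophage or monocyte markers read 49.3, 60 and 65.5, and their part in the result was not tested. In fibroblast-like cells microglia markers read 1881, 3092 and 2891 in early, medium and late cells, highest in the medium stage like the members, and macrophage or monocyte markers 2358, 2506 and 3774. In endothelial-like cells they read 2992, 3588 and 4358, and 2843, 3018 and 2548. These lists hold Sparc and Fn1, which stromal cells also express. The part of leukocyte RNA in the stromal levels was not tested.

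Over 44 profiles of class and stage, the genes whose log2(CPM + 10) was most like that of the summed members were Bst2, H2-T22, Isg15 and H2-K1 (Pearson r = 0.78 for each). Psme2b, H2-D1 and Usp18 followed at 0.77 and B2m, H2-Q6 and Tap1 at 0.76. The 10 were ranked among 14664 genes, and the profiles share libraries and depth, so r is a description. Among the members, Tgtp1 and Tgtp2 had r = 1.00, Iigp1 and Irgm1 0.80, and Gbp5 and Irgm2 0.19.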

How the data were processed

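The deposited table of UMI counts (50262 genes, 20811 cells) was made by the authors with RapMap in bcbio-nextgen against the GRCm38 transcriptome (mm10 per the labels) plus transgenes. Other deposited text gave the run, sort and stage of each library. Whether ambient RNA and doublets were removed before deposit is not stated. The members, gene lists and tests were chosen with earlier results of these data known.

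Cells with at least 500 UMIs, at least 500 genes and at most 20% mitochondrial UMIs were kept (17894). Scrublet called 113 of 17786 cells tested, and 17781 remained. Cells were clustered on 2000 variable genes and 40 components (scanpy 1.11.5, leidenalg 0.10.2, resolution 1). A cluster was named where at least 3 fixed markers were 2-fold up and found in 10% of cells. These had to be a share of at least 0.5 of the class's markers, or 1 marker had to be among the cluster's 10 leading genes. No name was given where another class had more markers among those 10. This rule was refined after clusters had been seen, and 7 of 35 clusters (2690 cells) stayed unnamed. Stage ratios used a prior count of 0.5. The sort test was edgeR 4.0.16 (TMM, R 4.3.3) on summed counts, run also on simulated data. Those data held no difference between tumors, so they did not check the block. The deviations of the sorts of 1 tumor correlated at 0.384, 0.280 and 0.302 in the 3 pairs, which come from the same dissociated tumors. The genes named are the 10 members, the 3 most abundant of each list and the 10 genes most alike in pattern. A few others were named after their values had been seen (Irf1, Psmb8, B2m). Some alleles and genes are not reported here.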

Additional observations from a re-analysis of the deposited data

Results flagged for a closer look

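Of 66 groups of 4 libraries, 4 had a library far from the other 3, by a limit set to flag about 1 in 20 by chance. The groups include the summed members and the near-identical Tgtp1 and Tgtp2, so they are not independent. Igtp read 86.1 CPM in the early CD45+ library of 136 cells, against 47.6 in the next. In the medium CD45+ library of 1481 cells Tgtp1 read 29.3 (next 39.1) and Tgtp2 29.5 (next 39.8). Irgm1 read 189 in the medium CD45- library of 372 cells (next 154).

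The summed members were lower in the medium than the early sample in border macrophage-like cells (log2 ratio -0.46) and neutrophil-like cells (-0.57), while the ratio was above 0 in the other named classes compared. Of these, the intervals of T cell-like and astrocyte-like cells included 0, and the T cell-like ratio was -0.12 when cells were thinned to 1000 UMIs. The difference between classes was not tested.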

How the results depend on the processing

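Of the values and counts that answer a comparison, 577 recomputed ones stayed within the spread or within 1.5 times and 84 moved. Among these the T cell-like ratio over early, 0.16 with an interval that includes 0, turned to -0.12 when cells were thinned. For single members between the sorts 6 recomputed values reversed, as given here. Log2 ratios of the summed members and counts of members at least 2-fold higher are given, those over early unless late is named. No share of all genes was computed for the counts of members under these alternatives, so they have no background beside them. Alternatives on human EGFR were chosen after seeing the data. The replicate block changed the count of members called between the sorts from 3 to 1 when dropped, and leaving out a tumor gave 3 to 5, the 5 without the medium tumor. Directions reversed for Igtp without the block (-0.10), for Irgm1 without normalization factors (-0.032) and for Irgm2 without those factors (-0.27), without the block (-0.39) and without the early (-0.36) or late (-0.07) tumor, while it was 0.76 without the medium tumor. Over all genes 44.2% of calls were higher in CD45+ cells, and 28.3% without normalization factors, where the median of all genes was -0.40 and not -0.04. The cause of these changes was not tested.

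Without human EGFR cells the ratios were 2.81 and, over late, 2.94 (5 members) in glioma- or progenitor-like, 2.49 in oligodendrocyte-like, 0.57 and 2.00 over late in CD45+ and 1.29 and 2.15 over late in CD45- cells. In glioma- or progenitor-like cells with human EGFR the ratio over late was 4.77. With classes set by the highest marker score they were 0.97 and 2.22 over late in microglia-like, 3.05 over late in macrophage- or monocyte-like, 2.62 in oligodendrocyte-like, 0.84 and 1.06 over late in endothelial-like and 1.72 and 3.17 over late in fibroblast-like cells. The counts were then 4 over late in border macrophage-like, 2 in T cell-like, 4 in astrocyte-like, 3 in endothelial-like and 7 and 10 over late in fibroblast-like cells. With doublets kept, macrophage- or monocyte-like cells gave 0.12 and 3.51 over late, and endothelial-like cells 3 members. With every deposited cell CD45- gave 3.35 over late, astrocyte-like cells 1 member and endothelial-like cells 4.

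Thinned to 1000 UMIs, the ratios were 0.60 in macrophage- or monocyte-like, -0.12 and, over late, 0.28 in T cell-like, 4.01 over late in glioma- or progenitor-like, 2.54 in oligodendrocyte-like and 1.49 in astrocyte-like cells. The counts were 3 in microglia-like, 3 over late in border macrophage-like, 0 in astrocyte-like and 2 and 0 over late in endothelial-like cells. Run 1 alone gave 3.61 over late (5 members) in macrophage- or monocyte-like, 2.52 (5 members) and 5.68 over late (4 members) in oligodendrocyte-like cells and 3 members in microglia-like cells. Run 2 alone gave 1.90 over late in microglia-like, 0.040 and 2.32 over late in macrophage- or monocyte-like, 4.39 and 4.89 over late in glioma- or progenitor-like and 2.58 in oligodendrocyte-like cells. Run 3 alone gave 0.48 (2 members) and 1.19 over late in microglia-like, 3.31 over late in macrophage- or monocyte-like, 3.76 over late in glioma- or progenitor-like and 3.74 in oligodendrocyte-like cells and 2 members over late in T cell-like cells.

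Leaving out 1 library at a time gave 0.15 to 0.72 and, over late, 2.33 to 3.63 in macrophage- or monocyte-like, 1.55 to 1.92 over late in microglia-like, 4.63 to 5.81 and 4.35 to 4.80 over late in glioma- or progenitor-like, 0.044 to 1.98 in astrocyte-like (1.98 without early CD45- library D) and 0.86 to 0.95 in CD45+ cells. Counts ranged from 3 to 6 in microglia-like (3 without medium CD45+ library A), 1 to 2 in astrocyte-like, 0 to 3 and 1 to 3 over late in endothelial-like and 2 to 5 in fibroblast-like cells. The oligodendrocyte-like fold over late, which rests on 5 late UMIs, ranged from 94.4 to 189.8, the latter without late CD45- library B.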

Other observations

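An unnamed CD45+ cluster led by Cxcl9, a chemokine gene induced by interferon-gamma, and Ifi44l read 543, 737 and 126 CPM of the summed members in 121 early, 1043 medium and 74 late cells. The log2 ratio was 0.44 over early and 2.52 over late. Of its 1043 medium cells, 24 had at least 10 member UMIs and held 20.1% of the member UMIs. A CD45+ medium cluster of 146 cells led by Apobec3 and Hpse had 5 such cells.

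Microglia-like cells of the CD45- sort read 529, 766 and 183 CPM in 211, 71 and 31 cells, against 336, 587 and 181 in the CD45+ sort. Neutrophil-like cells of the medium sample with a human EGFR UMI numbered 4 and read 1205, and the 249 without read 152.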
